A study of Homo sapiens with 4 samples.

Results

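The ZNF500 to ZNF799 genes are the zinc finger genes whose symbol is ZNF followed by a number from 500 to 799, with an optional closing letter from A to D, so names of antisense RNAs, pseudogenes and readthrough genes were left out. They were 220 of the 60609 gene IDs in the expression table and carried 218 symbols, because ZNF761 and ZNF724 each had 2 IDs. Expression was measured by stranded total RNA sequencing in CCRF-CEM/HA-AMPKa2 cells, a derivative of the CCRF-CEM line, a human T cell acute lymphoblastic leukemia line grown in suspension; by its name the derivative carries an HA-tagged AMPKa2, a catalytic subunit of AMP-activated protein kinase. The No glucose group was 2 libraries from cells kept in medium without glucose for 24 h, and the Ctrl group was 2 libraries from the same cells in control medium; all 4 carry the HA-AMPKa2 construct, so the comparison says nothing of cells without it. Because a single line was sampled and no source states that the libraries came from separate cultures, the spread behind each p-value is that between these libraries and may be technical.

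C2H2 zinc finger genes form the largest group of human transcription factor genes, and most of their products bind DNA through tandem arrays of short zinc-holding fingers. Many carry a KRAB box near the N-terminus, a short domain that recruits TRIM28 and, through it, histone methyltransferases, heterochromatin proteins and deacetylases. KRAB zinc finger proteins are best known for silencing transposable elements, and their genes sit in tandem clusters, above all on chromosome 19. A minority of zinc finger genes act elsewhere, in ribosome quality control, ribosome assembly or RNA binding.

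The total number of reads assigned to genes was 19035535 in the ONG_9 library and 20081266 in the ONG_10 library of the No glucose group, against 96698709 and 24513840 in the Ctrl libraries CTRL_7 and CTRL_8, the names the table gives them; values per library below keep that order. Of 15 T lineage markers, 14 had a mean normalized count of 10 or more, and the list summed to between 85699 and 87158 normalized counts in No glucose and between 97207 and 99977 in Ctrl. B lineage markers summed to between 523 and 536 in No glucose and between 894 and 908 in Ctrl. Myeloid markers summed to between 33.4 and 54.7 in No glucose and between 39.5 and 44.1 in Ctrl with MPO at 0, erythroid markers to between 3.03 and 7.02 in No glucose and between 4.47 and 5.35 in Ctrl with HBB at 0, and the list for adherent cells, nearly all of it VIM, to between 19475 and 20610 in No glucose and between 15558 and 15995 in Ctrl. The part of these differences in the results below was not tested, and in bulk RNA fewer cells of a type and less RNA per cell cannot be told apart.

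The promoters of 3 members are shown because they hold the ETS core, a string found more often in the members' windows than in those of coding genes, and because 2 of the 3 genes are near neighbours that changed in opposite directions. They are the 250 bases before the RefSeq start (GRCh38.p14) of ZNF528 (chr19:52397599-52397848, plus strand) and ZNF708 (chr19:21329411-21329660, minus strand), whose RNA was higher without glucose, and of ZNF578 (chr19:52453303-52453552, plus strand), which lies in the same gene cluster as ZNF528 and whose RNA was lower. Capitals mark the ETS core, CGGAAG or its reverse complement CTTCCG, the only motif found in all 3; the window of ZNF708 also holds a CCAAT box, left in lower case.
ZNF528: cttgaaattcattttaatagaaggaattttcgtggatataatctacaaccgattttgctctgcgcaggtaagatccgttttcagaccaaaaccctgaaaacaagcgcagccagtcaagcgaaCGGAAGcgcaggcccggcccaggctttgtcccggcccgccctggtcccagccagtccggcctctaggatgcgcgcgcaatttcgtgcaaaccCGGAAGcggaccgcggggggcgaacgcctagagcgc
ZNF708: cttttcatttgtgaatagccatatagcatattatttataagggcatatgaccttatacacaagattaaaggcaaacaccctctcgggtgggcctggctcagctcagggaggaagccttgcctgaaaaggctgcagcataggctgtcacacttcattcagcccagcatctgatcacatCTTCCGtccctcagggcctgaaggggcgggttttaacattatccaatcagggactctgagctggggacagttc
ZNF578: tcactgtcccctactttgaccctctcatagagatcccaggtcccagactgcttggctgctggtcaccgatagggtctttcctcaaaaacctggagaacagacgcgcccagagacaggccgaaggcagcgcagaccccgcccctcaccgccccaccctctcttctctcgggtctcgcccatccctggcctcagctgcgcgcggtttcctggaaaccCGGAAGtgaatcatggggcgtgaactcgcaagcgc

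Of the 218 symbols, 179 matched an entry in the RefSeq promoter table. The ETS core, read on both strands, stood in 38.5% of the matched members' windows and in 21.7% of the 15843 windows of protein-coding genes. By direction, it was in 24 of the 51 windows of members called higher without glucose (47.1%), in 9 of the 23 of members called lower (39.1%) and in 32 of the 93 of members not called (34.4%), where a call is a limma adjusted p under 0.05, made in the higher direction for 14.4% and in the lower for 20.7% of all genes tested. The CCAAT box, CCAAT or ATTGG, was in 46.9% of the members' windows and in 34.5% of those of coding genes. The YY1 motif was in 2.79% of the members' windows and 0.915% of those of coding genes, and the cAMP response element TGACGTCA in 2.79% and 2.32%. The E-box CACGTG, which carbohydrate-responsive MondoA and MYC family factors bind in pairs or singly, was in 4.47% of the members' windows and in 7.84% of those of coding genes. The CGCG element, a palindrome given here by its name, was in none of the members' windows and in 0.587% of those of coding genes. No motif searched contains another, and a match is a string of letters in this window, not a bound site.

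As a class the members were more often higher than lower in cells without glucose, while other protein-coding genes were more often lower. Of 203 members whose normalized count averaged 1 or more, 67 (33.0%) were higher in No glucose and 25 (12.3%) were lower at an adjusted p under 0.05, by limma on log2(normalized count + 1) with Benjamini-Hochberg adjustment over all 27486 genes tested. In that fit 14.4% of all tested genes were called higher and 20.7% lower. Among the 14386 other protein-coding genes tested, 16.2% were called higher and 36.5% lower. The median log2 fold change, No glucose over Ctrl, was 0.15 over the tested members, -0.14 over other protein-coding genes and 0.04 over all tested genes. The filter can retain a low gene through one group alone, but the contrast stood as well over genes with a mean of at least 50: 63 of 178 members were higher and 25 lower (35.4% and 14%, median 0.13), beside 18.6% and 47.7% of 10478 other protein-coding genes (median -0.21).

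The changes were small. Of the 67 members higher without glucose, 32 had a log2 fold change under 0.5, 29 lay between 0.5 and 1, and 6 exceeded 1; only ZNF610 and ZNF563 passed 1 in either direction with a mean of at least 50. Of the 25 lower members, 9 lay below -0.5 and none reached -1. Both No glucose values stood above both Ctrl values in 105 members, or 51.7% of those tested, and below them in 43, or 21.2%; over all tested genes these shares were 35.1% and 31.7%. Every one of the 67 and 25 called members was among these.

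Scaling sets where 0 lies. With each library scaled to its total reads in place of the deposited size factors, the median log2 fold change of all tested genes moved by over 0.1, to 0.24, and the members' median to 0.36; 114 members were then called higher and 7 lower, beside 22.2% and 13.9% of all tested genes, and higher calls made up 61.5% of all calls in place of 40.9%. The median of the members less that of other protein-coding genes was 0.29 with the deposited size factors and 0.29 with totals. That difference is not a check on scaling, since a change of scaling shifts all genes nearly alike. With the deposited size factors the members summed to 248489 and 236866 normalized counts in No glucose, against 221915 and 219178 in Ctrl. A share of all reads assigned to genes is scaling to totals in another form. By that share the members took 0.861% and 0.841% in No glucose, against 0.668% and 0.668% in Ctrl. The No glucose shares both stood above the Ctrl ones, by a larger fold than the sums did. The means were 0.851% ± 0.0144 in No glucose and 0.668% ± 0.000225 in Ctrl (SD, n = 2 each), and with 2 libraries against 2 an exact permutation test cannot give a two-sided p below 0.333.

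The contrast with other protein-coding genes was present at each level of expression from a mean of 200 upward; between 50 and 200 it lay in the lower calls, 2 of 20 members beside 26.7% of others. Between 200 and 1000 normalized counts, 29.5% of 78 members were higher and 17.9% lower, beside 18.0% and 44.2% of 3103 other protein-coding genes. Between 1000 and 5000, 42.9% of 77 members were higher and 11.7% lower, beside 17.6% and 52.7% of 4455 others. Weighting the other protein-coding genes to the members' spread over level bands gave 17.4% higher and 41.5% lower, and weighting them jointly over level, coding GC content and exon length, with bands for 196 of 202 members, gave 19.5% and 36.3%. None of these weighted shares is a test.

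**Figure D1:**
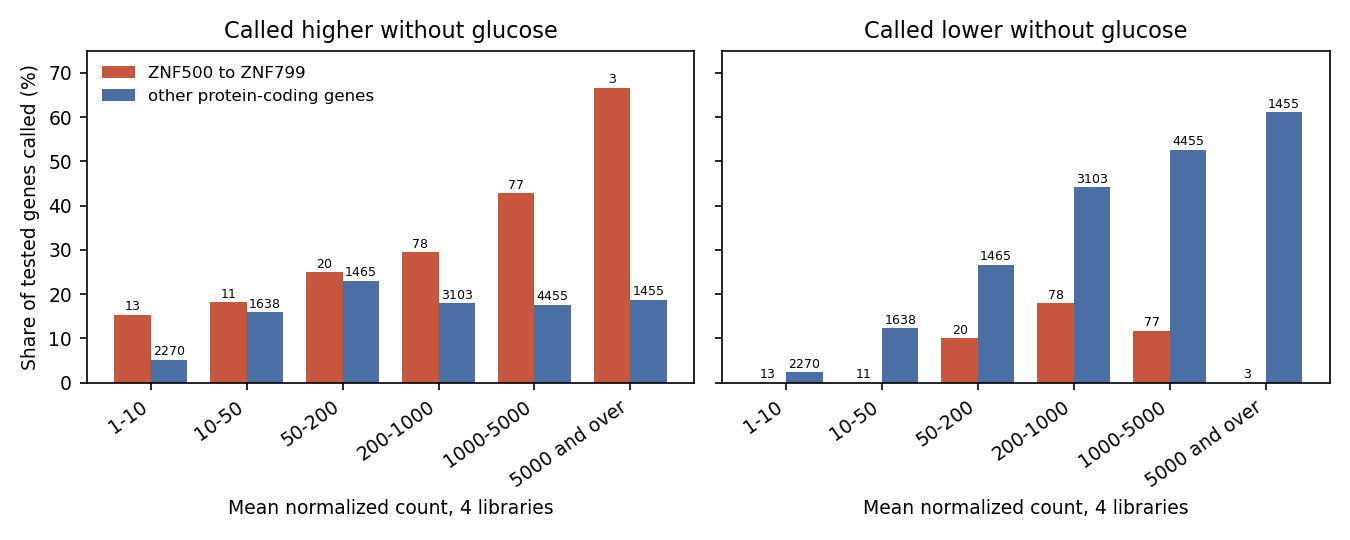
Share of tested genes called higher (left) and lower (right) without glucose, in percent, for ZNF500 to ZNF799 members (red) and other protein-coding genes (blue), in bands of the mean normalized count over 4 libraries; the number over a bar is the number of genes. In the bands from 200 upward the red bars stand above the blue on the left and below them on the right; the 5000 and over band holds 3 members.

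Length and base composition moved with the calls, and their part in the result was not tested. Of 42 members with at least 8000 bases of exon, 21 were higher and 3 lower, beside 26.5% and 29.1% of other protein-coding genes of that length; of 46 members with 4000 to 6000 bases, 7 were higher and 8 lower, beside 14.2% and 38.7%. Where coding GC was at least 60%, 5 of 41 members were higher and 10 lower, beside 11% and 32.9% of other coding genes; at 40% to 45%, 30 of 68 were higher and 3 lower, beside 19.2% and 38.8%. Members with and without a KRAB box differ in this: the median coding GC of tested members was 41.4% with and 59.3% without.

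Grouped by domain, 51 of the 67 rises were of KRAB genes, which make up 138 of the 203 tested members. A KRAB box, scored on the translated coding sequence, was found in 148 members, 138 of them tested, of which 51 were higher (37.0%) and 11 lower (7.97%), with a median log2 fold change of 0.17. Of the 64 tested members in which none was found, 16 were higher (25%) and 14 lower (21.9%), with a median of 0.00. Their difference was not tested. KRAB genes with no exon shared with another gene gave like counts, 21 higher and 3 lower of 53. KRAB genes under other ZNF numbers, none of them members, gave 61 higher and 11 lower of 172, with a median of 0.16, close to the members' own values.

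**Figure D2:**
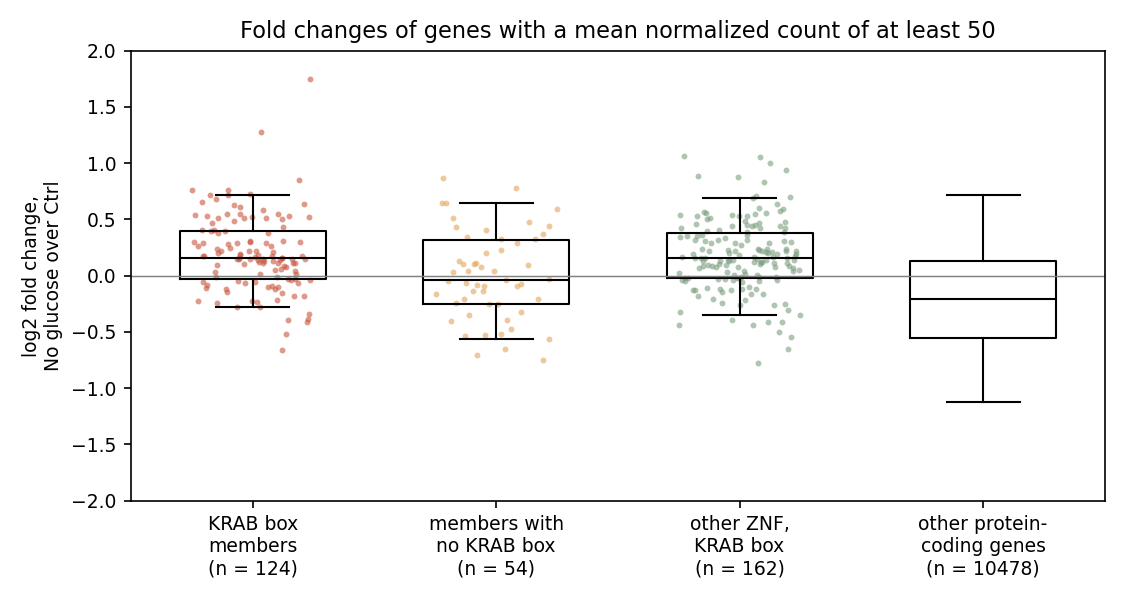
Log2 fold change, No glucose over Ctrl, of genes whose normalized count averaged 50 or more; boxes show quartiles and median, whiskers the central 90% of genes, and points single genes, drawn for the zinc finger classes alone. The medians are 0.16 for 124 KRAB members, -0.03 for 54 members with no KRAB box, 0.16 for 162 other ZNF genes with a KRAB box and -0.21 for 10478 other protein-coding genes.

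On chromosome 19, 34 of 93 KRAB members were higher and 9 lower (36.6% and 9.68%, median 0.16), and elsewhere 17 of 45 were higher and 2 lower (37.8% and 4.44%, median 0.19). Other protein-coding genes of chromosome 19 outside the ZNF, ZBTB and ZSCAN names went the other way, with 85 of 891 higher and 325 lower (median -0.26). Grouped by the number of C2H2 fingers, KRAB members with up to 4 fingers had 1 higher and 1 lower of 7. Those with 5 to 9 had 23 higher and 0 lower of 48. Those with 10 to 14 had 17 and 7 of 53, and those with 15 or more had 10 and 3 of 30. Calls over all tested genes were 14.4% higher and 20.7% lower, and over all tested KRAB members 37.0% and 7.97%. The differences between these groups of members were not tested.

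The largest rise among members with a mean of at least 50 was that of ZNF610 (ENSG00000167554, chr19:52336245-52367778, plus strand), a KRAB gene with 8 fingers. It had 385 and 403 normalized counts in No glucose, against 102 and 132 in Ctrl. Both No glucose values were above both Ctrl values by a wide margin. Its log2 fold change was 1.75 ± 0.14 (SE), or 3.36-fold, with a limma adjusted p of 1.95e-06. ZNF563 (ENSG00000188868, chr19:12317477-12333720, minus strand), a KRAB gene with 10 fingers, had 252 and 262 normalized counts in No glucose, against 87.6 and 127 in Ctrl. Here too the groups stood apart, though the Ctrl libraries differed more from each other than the No glucose ones. Its log2 fold change was 1.28 ± 0.17 (SE) with a limma adjusted p of 0.000102.

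ZNF528 (ENSG00000167555, chr19:52397849-52418412, plus strand), a KRAB gene with 15 fingers, had 1510 and 1353 normalized counts in No glucose, against 823 and 865 in Ctrl. Every No glucose value was the higher. The log2 fold change was 0.76 ± 0.08 (SE) and the limma adjusted p 1.58e-05. The RNA on its other side, ZNF528-AS1, is transcribed from the minus strand and its annotated start lies inside the promoter window printed above. It had 393 and 481 normalized counts in No glucose, against 213 and 207 in Ctrl, a log2 fold change of 1.05 ± 0.12 (SE, limma adjusted p = 3.00e-05). The 2 genes share no exon, and RNA from both sides of that promoter was higher without glucose.

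ZNF708 (ENSG00000182141, chr19:21291160-21329425, minus strand), a KRAB gene with 14 fingers, had the highest level per kilobase of exon among the 8 members with the largest rises, 501 normalized counts per kb. It had 2782 and 2618 normalized counts in No glucose, against 1658 and 1606 in Ctrl. The groups did not overlap, and the log2 fold change was 0.73 ± 0.06 (SE, limma adjusted p = 4.70e-06). ZNF641 (ENSG00000167528, chr12:48337180-48351414, minus strand), another KRAB gene, had 1222 and 1233 normalized counts in No glucose, against 716 and 729 in Ctrl. Its groups too stood apart, with a log2 fold change of 0.76 ± 0.07 (SE, limma adjusted p = 7.47e-06).

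The other 3 of the 8 were ZNF571, ZNF781 and ZNF513. ZNF571, a KRAB gene with 16 fingers on chromosome 19, had 479 and 404 normalized counts in No glucose, against 244 and 245 in Ctrl. ZNF781, a gene of 3 fingers without a KRAB box in the same stretch of the chromosome, had 133 and 104 in No glucose, against 63.5 and 64.2 in Ctrl, and shares 9.43% of its exon bases with genes on its own strand. ZNF513, which is linked to inherited retinal disease, had 230 and 328 in No glucose, against 166 and 155 in Ctrl, and 12.8% of its exon bases lie over SNX17 on the other strand. The groups were apart for all 3, as for all of the 8 by the rule that picked them. Their log2 fold changes were 0.85 ± 0.11, 0.87 ± 0.18 and 0.78 ± 0.16 (SE) in that order. At means under 50, 4 members were also called higher. ZNF619 had 59.1 and 56.1 normalized counts in No glucose, against 24.4 and 25.4 in Ctrl, and ZNF556 had 39.4 and 23.9, against 14.4 and 6.69; the call of ZNF556 was lost without CTRL_8, ONG_10 or ONG_9 (limma adjusted p of 0.12, 0.072 and 0.064) and with DESeq2 (0.074). ZNF532 and ZNF703 are given with the genes of known role.

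ZNF664 (ENSG00000179195, chr12:123971845-124015439, plus strand), which has 9 fingers and no KRAB box, fell most. It had 3763 and 3383 normalized counts in No glucose, against 5955 and 6078 in Ctrl. Both No glucose values were far below both Ctrl values. The log2 fold change was -0.75 ± 0.06 (SE) and the limma adjusted p 3.14e-06. ZNF639 (ENSG00000121864, chr3:179322991-179338583, plus strand), also called ZASC1 and known as a factor that supports retroviral transcription, had 3001 and 2941 normalized counts in No glucose, against 4611 and 4715 in Ctrl. Its replicates lay close together and its groups well apart, with a log2 fold change of -0.65 ± 0.06 (SE, limma adjusted p = 3.72e-06).

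ZNF578 (ENSG00000258405, chr19:52453576-52512154, plus strand), a KRAB gene with 10 fingers, was the only one with a KRAB box among the 8 largest falls. It had 196 and 182 normalized counts in No glucose, against 279 and 321 in Ctrl. The groups did not overlap, and the log2 fold change was -0.66 ± 0.12 (SE, limma adjusted p = 0.000913). The other 5 of the 8 had no KRAB box. ZNF672 had 585 and 616 normalized counts in No glucose, against 913 and 860 in Ctrl, and ZNF768 had 302 and 396, against 523 and 470. The log2 fold changes of these 5, ZNF598, ZNF672, ZNF668, ZNF511 and ZNF768, ran between -0.70 and -0.52. Exons of ZNF668 and ZNF511 lie over genes of the opposite strand for 36.5% and 32.8% of their bases, and since the strand used in counting is not given in the sources used here, reads there cannot be told apart.

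**Figure D3:**
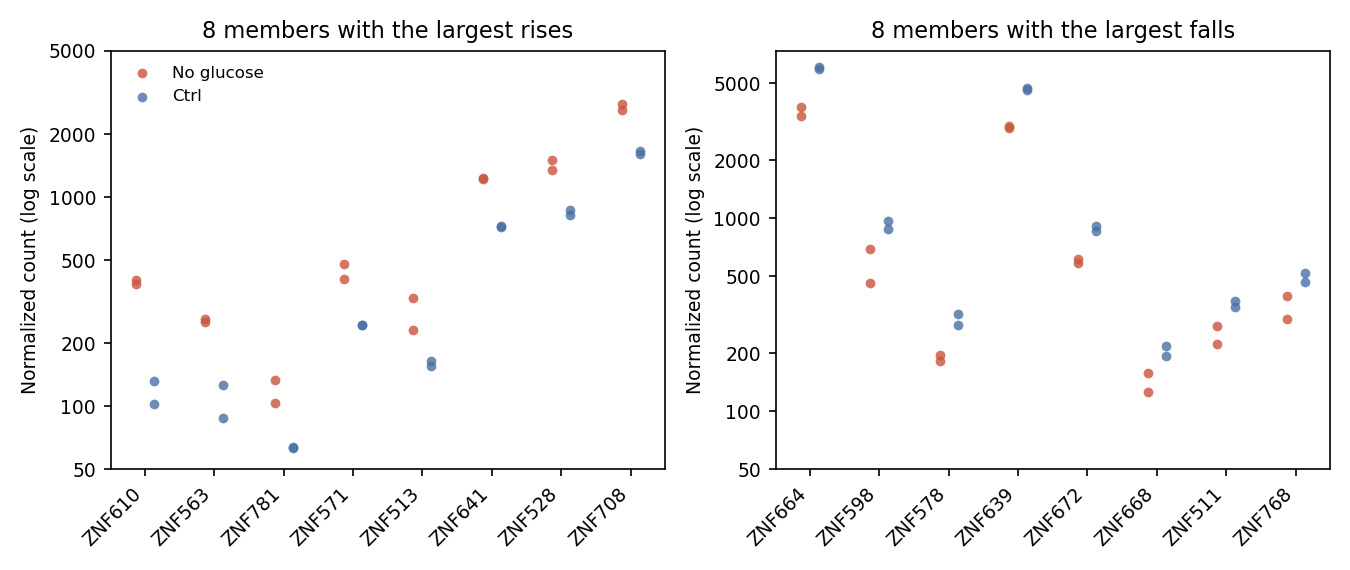
Normalized counts on a log scale for the 8 members with the largest rises (left) and falls (right) among those called with a mean of at least 50; each point is 1 library, No glucose in red and Ctrl in blue. The genes were picked among members whose groups did not overlap. In all 16 genes the 2 red points therefore lie on the same side of the 2 blue ones by the choice itself. ZNF610 shows the widest gap, 385 and 403 in No glucose and 102 and 132 in Ctrl.

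Genes with a role in translation changed in both directions. ZNF598, the ubiquitin ligase that marks ribosomes in collision, had 459 and 695 normalized counts in No glucose, against 967 and 875 in Ctrl. The No glucose libraries differed widely from each other yet stayed below Ctrl, with a log2 fold change of -0.70 ± 0.15 (SE, limma adjusted p = 0.0036). By DESeq2 on the recovered reads the adjusted p was 0.058, while DESeq2 in the authors' deposited table gave 0.000226. ZNF622, the human relative of a yeast factor in the last steps of large ribosomal subunit assembly, had 1174 and 1145 in No glucose, against 944 and 852 in Ctrl, a log2 fold change of 0.37 ± 0.08 (SE, limma adjusted p = 0.0027). ZNF593, another large subunit assembly factor, is listed at 0 in every library; its exons lie wholly over ZNF593OS on the opposite strand.

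Of the chromatin genes, ZNF711 and ZNF638 were higher without glucose. ZNF711, an X-linked gene whose product works with the histone demethylase PHF8, had 5768 and 5079 normalized counts in No glucose, against 3413 and 3483 in Ctrl. The groups were apart, with a log2 fold change of 0.65 ± 0.07 (SE, limma adjusted p = 1.55e-05). ZNF638, which guides silencing of unintegrated retroviral DNA by the HUSH complex, had 10262 and 9334 in No glucose, against 7824 and 7813 in Ctrl, a log2 fold change of 0.32 ± 0.06 (SE, limma adjusted p = 0.000895). ZNF644, a partner of the methyltransferases EHMT1 and EHMT2, had 9989 and 9342 in No glucose, against 9057 and 8931 in Ctrl and was not called (log2 fold change 0.10, limma adjusted p = 0.16).

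ZNF532, ZNF592 and ZNF687 are the zinc finger partners of ZMYND8. ZNF532 was counted with 20 reads over both No glucose libraries and 2 over both Ctrl libraries, a depth-scaled ratio of 26.7 with an exact 95% interval from 6.48 to 235 that covers counting error only. It was called by limma (adjusted p = 0.000648). DESeq2 on the recovered reads gave it no adjusted p, while DESeq2 in the authors' deposited table gave 0.0039. ZNF592 and ZNF687, both far more abundant, had log2 fold changes of -0.03 and -0.14 and were not called. ZMYND8 itself had 4321 and 4390 normalized counts in No glucose, against 3746 and 3828 in Ctrl, and was called higher (log2 fold change 0.20, limma adjusted p = 0.013).

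ZNF692, also known as AREBP and described as a target of AMP-activated protein kinase, was lower without glucose in these HA-AMPKa2 cells. It had 587 and 608 normalized counts in No glucose, against 809 and 766 in Ctrl. The groups were apart, with a log2 fold change of -0.40 ± 0.08 (SE, limma adjusted p = 0.0020). ZNF746, or PARIS, a repressor of PGC-1alpha and a substrate of parkin, had 913 and 1048 in No glucose, against 1042 and 959 in Ctrl; the groups overlapped and it was not called.

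Among genes of blood cell biology and signalling, ZNF655, whose product binds VAV1, rose and ZNF521, a cofactor of hematopoietic progenitors, fell. ZNF655 had 5125 and 4820 normalized counts in No glucose, against 3546 and 3439 in Ctrl, a log2 fold change of 0.51 ± 0.06 (SE, limma adjusted p = 3.34e-05). ZNF521 had 4086 and 3769 in No glucose, against 5041 and 4782 in Ctrl, a log2 fold change of -0.32 ± 0.06 (SE, limma adjusted p = 0.0014). For ZNF675, an inhibitor of TRAF6 signalling, the values were 2890 and 2882 in No glucose and 2375 and 2426 in Ctrl, a log2 fold change of 0.27 (limma adjusted p = 0.0037). ZNF683, the tissue-resident lymphocyte factor Hobit, was near the floor at 1.52 and 2.81 in No glucose and 4.47 and 2.68 in Ctrl, where 3 reads come to between 1.03 and 4.55 normalized counts depending on the library. ZNF703, a breast cancer gene on chromosome 8, had 10.6 and 9.82 in No glucose and 1.03 and 1.34 in Ctrl, from 7 and 7 reads in No glucose and 3 and 1 in Ctrl. DESeq2 gave it no adjusted p, and limma a log2 fold change of 2.36 ± 0.56 (SE, limma adjusted p = 0.0059).

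ZNF568, whose mouse counterpart represses a placental Igf2 transcript, had 917 and 857 normalized counts in No glucose, against 1026 and 1054 in Ctrl (log2 fold change -0.23, limma adjusted p = 0.032). ZNF587, a KRAB gene that represses endogenous retroviruses, had 869 and 803 in No glucose, against 800 and 787 in Ctrl, and was not called. Its near copy ZNF587B was lower, at 1120 and 1019 in No glucose, against 1433 and 1404 in Ctrl (log2 fold change -0.41, limma adjusted p = 0.000996); how reads shared by such close copies were divided is not given in the sources used here. ZNF750, a factor of epidermal differentiation, had 15.2 and 32.3 in No glucose and 10.99 and 16.05 in Ctrl, with overlapping groups.

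Several of these calls were lost when 1 library was left out. In the fits that lost a call, the fold changes moved little. Leaving out a No glucose library moved some of the same genes more. The log2 fold change of ZNF598 was -0.999571 without ONG_10 and -0.404349 without ONG_9. In that order ZNF768 had -0.714 and -0.324, and ZNF668 -0.705 and -0.375, while ZNF675 had 0.268 and 0.264. Without CTRL_7, the limma calls of ZNF598, ZNF692, ZNF521, ZNF668, ZNF511, ZNF768, ZNF638, ZNF675 and ZNF568 were lost, with adjusted p between 0.089 and 0.22 and log2 fold changes within 0.0854 of those from all 4 libraries. Without CTRL_8, those of ZNF622, ZNF638, ZNF675 and ZNF568 were lost (0.064 to 0.34, log2 fold changes within 0.0735), and without ONG_10 that of ZNF568 (0.060). ZNF587B lost its call without CTRL_7 (0.066). With scaling to total reads, ZNF598, ZNF692, ZNF521, ZNF668, ZNF511, ZNF768 and ZNF568 were no longer called (limma adjusted p from 0.068 to 0.85), while ZNF592, ZNF644 and ZNF587 were called higher (0.029, 0.000371 and 0.012); DESeq2 lost ZNF668 (0.060) and ZNF568 (0.087) as well. Leaving out ONG_9 gave 77 members higher and 37 lower, beside 15.2% and 23.3% of all tested genes. Leaving out CTRL_7 gave 38 members higher and 4 lower (7.46% and 12.2% of all tested genes), and leaving out CTRL_8 gave 43 and 13 (7.44% and 14.6%). With all 4 libraries, edgeR on the recovered reads called 68 members higher and 32 lower (14.4% and 22.9% of all tested genes), and DESeq2 called 58 and 17 (8.86% and 17.7%).

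Per kilobase of exon, the highest mean levels over the 4 libraries were those of ZNF644 with 1227 normalized counts per kb, ZNF711 with 886, ZNF737 with 809, ZNF664 with 756 and ZNF521 with 710, beside a median of 136 over tested members. ZNF518A, one of the members with the most reads, had 7202 and 6818 normalized counts in No glucose, against 4926 and 4882 in Ctrl. Its groups stood apart, with a log2 fold change of 0.51 ± 0.05 (SE, limma adjusted p = 1.88e-05). Under the filter were 17 members. Of these, 9 were listed at 0 in all libraries, ZNF503, ZNF541, ZNF593, ZNF676, ZNF679, ZNF705B, ZNF716, ZNF735 and the second ID of ZNF724, and 8 had a few reads. ZNF667 had 5 reads in No glucose and none in Ctrl, a depth-scaled ratio with an exact 95% lower limit of 2.44 that covers counting error only, and was not called (limma adjusted p = 0.086).

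Along chromosome 19, which holds 114 of the 220 members, 108 were tested, 37 higher and 12 lower (34.3% and 11.1%). Over all tested genes 14.4% were called higher and 20.7% lower. The members fell into 15 stretches separated by gaps of over 1 Mb. In the stretch chr19:19785839-23945159, near the centromere of the short arm, 7 of 13 tested members were higher and 2 lower (median log2 fold change 0.52). ZNF737 there had 3669 and 3285 normalized counts in No glucose, against 2232 and 2266 in Ctrl, and ZNF626 had 649 and 592, against 377 and 395. ZNF714 and ZNF724 in the same stretch were lower, at 4086 and 3875 in No glucose, against 4752 and 4714 in Ctrl for ZNF714; both calls were lost without CTRL_7, without CTRL_8 and with scaling to total reads.

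In 2 stretches of the short arm, 4 of 6 and 4 of 10 tested members were higher and none was lower. Over all tested genes 14.4% were higher and 20.7% lower, and over all tested members 33.0% and 12.3%. These stretches hold few members, and their difference from the class was not tested. The first, chr19:8806170-9675086, held ZNF558, ZNF699, ZNF559 and ZNF561 with log2 fold changes between 0.29 and 0.44; of these ZNF559 alone was still called without CTRL_7 and without CTRL_8. The second, chr19:11483427-12633840, held ZNF563, ZNF763, ZNF627 and ZNF791, between 0.38 and 1.28; ZNF763 and ZNF791 were not called without CTRL_7 (limma adjusted p of 0.080 and 0.074). On the long arm the stretch chr19:51804816-53458261 was mixed: of 19 tested members, all with a KRAB box, 6 were higher and 1 lower, with a median of -0.01. Its extremes are neighbours, since ZNF610 at 1.75 and ZNF528 at 0.76 are followed, with ZNF534 between, by ZNF578 at -0.66, while ZNF766 just before them had 2790 and 2580 in No glucose, against 2782 and 2722 in Ctrl. The last stretch, chr19:55476332-58418327, had 8 higher and 5 lower of 29 tested (median 0.10).

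Genes for TRIM28 and other silencing factors were often lower without glucose, as were other protein-coding genes of their level. Of 26 genes on a list of TRIM28, its partners and related silencing factors, 17 were lower without glucose and 3 higher (median log2 fold change -0.36), beside 20.7% and 14.4% of all tested genes. These are abundant RNAs, 25 of the 26 with a mean of at least 1000; weighted to their level bands, 57.3% of other protein-coding genes were lower and 18.2% higher, beside 65.4% and 11.5% of the list. TRIM28, the scaffold that KRAB boxes bind, had 10216 and 12557 normalized counts in No glucose, against 18264 and 16791 in Ctrl, a log2 fold change of -0.63 ± 0.08 (SE, limma adjusted p = 0.000111). UHRF1, which couples DNA methylation to replication, had 2618 and 3812, against 8856 and 8101 (-1.42 ± 0.13), and DNMT1, the maintenance methyltransferase, 8662 and 9056, against 15227 and 14916 (-0.77 ± 0.05). The histone methyltransferase SUV39H1 fell by 0.64 on the log2 scale. The heterochromatin proteins CBX1 and CBX3 and the deacetylases HDAC1 and HDAC2 were also lower. The heterochromatin protein CBX5 had 23958 and 22501 normalized counts in No glucose, against 23883 and 23533 in Ctrl. It was not called (log2 fold change -0.03, limma adjusted p = 0.69). The 6 list genes without a call were CBX5, CHD3, EHMT1, TRIM24, TRIM33 and WIZ.

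SETDB1, the methyltransferase that TRIM28 recruits, was higher with its partner ATF7IP. SETDB1 had 2423 and 2245 normalized counts in No glucose, against 1880 and 1866 in Ctrl (0.32 ± 0.06), and ATF7IP had 6116 and 5986, against 4926 and 4888 (0.30 ± 0.05). Both calls, and that of ZMYND8, were lost when either Ctrl library was left out, with the log2 fold changes at 0.31 to 0.32 for SETDB1, 0.30 to 0.31 for ATF7IP and 0.19 to 0.22 for ZMYND8. Of the 3 HUSH subunits on the list, TASOR, MPHOSPH8 and PPHLN1, all were lower, with log2 fold changes between -0.46 and -0.32. However, TASOR was not called without CTRL_7, nor MPHOSPH8 without either Ctrl library. With scaling to total reads neither TASOR nor MPHOSPH8 was called (log2 fold changes -0.12 and -0.11, limma adjusted p of 0.074 and 0.16). Over the list, fewer genes were called with either Ctrl library left out. The list's median log2 fold change was -0.37 without CTRL_7 and -0.38 without CTRL_8. With scaling to total reads 12 list genes were lower and 7 higher (median -0.15), beside 13.9% and 22.2% of all tested genes. Among other protein-coding genes 24.9% were then lower and 26.8% higher.

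The authors' deposited table gives its own adjusted p for 193 members. Of these, by the authors' deposited table, 57 were higher and 18 lower at 0.05, beside 12.5% and 25.3% of its 19053 genes with an adjusted p.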

How the data were processed

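RNA for the 4 libraries (2 No glucose, 2 Ctrl) was prepared with a stranded total RNA kit and read as single ends, per the labels. STAR 2.6.0c, RSEM 1.3.0, DESeq2 1.18.1 and hg38 are named, per the submitters' processing notes; the annotation release and the strand used in counting are not given in the sources used here. The deposited values are gene-level signal, counts divided by size factors, and all of them (100%) were whole reads within 0.01 once multiplied back; the authors' log2 fold changes, p-values and Wald score stand beside them in the deposited table and were used only where named. The columns were matched to groups by name and carry no replicate number of the labels.

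Normalized counts were tested with limma 3.58.1 (R 4.3.3, trend) on log2(value + 1) over 27486 genes with a mean of at least 1, two-sided, p-values adjusted by Benjamini-Hochberg, called under 0.05; this scale understates changes of low genes. edgeR 4.0.16 and DESeq2 1.42.0 on the recovered reads, other scalings, pseudocounts and filters, and each library left out were the alternatives. Between the 2 No glucose libraries a chi-square of the reads came to 5.72 per degree of freedom, and between the Ctrl ones to 1.81, so neither pair agreed within sampling noise. Positions, exon lengths and coding sequences came from GENCODE 29, which held 219 members; a KRAB box was called where at least 50% of 22 positions of a family consensus matched in the translation, and no amino acid is shown. Genes with a role were named from a list. The 8 largest called changes in each direction were named at a mean of at least 50 with groups that did not overlap. The 4 highest levels were named too, and other genes were named after their values were seen. Members and lists were chosen with earlier results of these data known. Intervals and floors of 3 reads cover counting error only.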

Additional observations from a re-analysis of the deposited data

How the results depend on the processing

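With the libraries scaled to total reads, 114 members were higher and 7 lower, the members' median was 0.36 and 6104 of all tested genes were higher. DESeq2 called 2436 of all tested genes higher. The members' median was 0.10 with edgeR, 0.10 with TMM scaling and 0.13 with a filter at a mean of 50. Leaving out 1 library at a time gave 38 to 77 members higher, 4 to 37 lower, a members' median of 0.12 to 0.15, and 2027 to 4172 higher and 3318 to 6387 lower over all tested genes; the 38, the 4, the 2027 and the 3318 came without CTRL_7, and with CTRL_8 left out 43 and 13 members were called. Of the genes with no call, ZNF592 ran between -0.0575 and 0.00467 with 1 library left out and was 0.18 with totals, ZNF687 was 0.0729 with totals, and ZNF746 ran between -0.131 and 0.0684 with 1 library left out and was 0.18 with totals. Over 41 named genes and these alternatives, 523 values gave 483 with the same direction and side of the threshold, 30 that lost the call, 4 that gained it and 6 that turned. When a group is left with 1 library, that library is assumed to vary like the other group's. The cause of these shifts was not tested. No paired analysis was possible because the columns of the table carry none of the labels' replicate numbers. Depth limits members with few reads, where 3 reads come to between 1.03 and 4.55 normalized counts.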

Other observations

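A few antisense and neighbouring RNAs named after members moved with them, and most of those tested were not called. Of 27 such genes, 22 were tested, and by limma with Benjamini-Hochberg adjustment 5 were higher without glucose and 1 lower, beside 14.4% and 20.7% of all tested genes. ZNF571-AS1 had 97.0 and 88.4 normalized counts in No glucose, against 46.0 and 36.1 in Ctrl, a log2 fold change of 1.16 ± 0.20 (SE), beside 0.85 for ZNF571. Of the exon bases of ZNF571, 2.21% lie over ZNF571-AS1, and the strand used in counting is not given. ZNF582-AS1 had 59.1 and 40.7 in No glucose, against 22.3 and 24.1 in Ctrl (1.05 ± 0.26), beside 0.65 for ZNF582, whose call was lost without either Ctrl library and with DESeq2. ZNF561-AS1 rose by 0.46 on the log2 scale, beside 0.29 for ZNF561.

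In 2 pairs the antisense RNA changed and its partner was not called. ZNF790-AS1 had 206 and 215 normalized counts in No glucose, against 140 and 123 in Ctrl, a log2 fold change of 0.68 ± 0.13 (SE), beside -0.06 for ZNF790. ZNF649-AS1 had 15.2 and 23.9 in No glucose, against 38.1 and 42.8 in Ctrl (-1.05 ± 0.29), beside -0.01 for ZNF649. The difference within a pair was not tested.

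Zinc finger classes named for other N-terminal domains also had more genes higher than lower. They were grouped by name, and some of their genes also carry a KRAB box. Of 25 tested ZSCAN and ZKSCAN genes, whose SCAN domain pairs such proteins with each other, 13 were higher and 1 lower (52% and 4%). Their median log2 fold change was 0.26. Of 37 ZBTB genes, whose BTB domain does so in another way, 18 were higher and 8 lower (48.6% and 21.6%), with a median of 0.17. Over all tested genes 14.4% were called higher and 20.7% lower, so the ZBTB share lower was near that of all genes. These class differences were not tested.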
